A study of Mus with 8 samples.

Results

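The collagen chain genes of mouse, those named Col, a type number, the letter a and a chain number, were followed across subcutaneous pancreatic tumours grown in 2 kinds of host. The array carried probes for 22911 named genes, and 44 of these matched the rule by the symbol of the probe's RefSeq accession. By class they were 11 fibrillar chains, 6 basement membrane chains (type IV), 6 type VI chains, 9 fibril-associated chains and 12 others. Of the 44 genes, 34 had a probe well above background in 4 or more of the 8 arrays and were tested, and the other 10 are described by their levels. All tumours grew under the skin from transplanted Pan02, a line of mouse pancreatic cancer cells. The 4 Control tumours came from wild-type B6 hosts, and the 4 Mutant tumours from hosts labelled Ext1 flox/flox; S100a4-Cre. In these hosts an Ext1 allele flanked by recombination sites meets a recombinase driven by S100a4, a gene of fibroblasts that other stromal cells also use. The transplanted cells carry neither allele, so host cells alone could lose Ext1, which encodes an enzyme that builds heparan sulfate. Tumours were removed after 36 to 40 days, the age of the hosts is not given in the sources used here, and RNA of each whole tumour went onto 1 array labelled with Cy3.

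Collagens are built from chains that wind around each other into a helix, and some molecules need chains of different genes. Fibrillar collagens form the cables of connective tissue and are made in tumours chiefly by fibroblasts, while fibril-associated chains sit on the cable surface. Type IV chains form the sheet of basement membranes around vessels and epithelia, and type VI chains form beaded filaments close to cells. The remaining types include anchoring fibrils, networks, chains that span the cell membrane and the multiplexins, which carry glycosaminoglycan chains.

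Levels are given as log2 signal after subtraction of the array's 75th percentile. Differences are Mutant minus Control, and no level is set against that of another gene, since probes differ in brightness. Of the 56605 probes, each array measured 61.5% to 67.2% well above background, no spot was saturated, and 4 tumours per group limit the precision. The targeted gene Ext1 ranged from 2.02 to 3.64 in Control and from 2.93 to 3.41 in Mutant tumours, and since the cancer cells keep it, the probe does not check the deletion. Pan02 tumours carried the epithelial keratins Krt8 and Krt18 well above background on all 8 arrays, while Epcam was not well above background on any. One Control tumour stood apart: Control 4 had the highest level of the 8 tumours for 22.4% of the 16068 genes tested and the lowest for 35.2%. Values without it stand beside many of the results below.

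No collagen gene differed between the hosts beyond the spread of the tumours. Of the 34 tested collagen genes 15 lay above 0 and 19 below, with a median difference of -0.03, while over all 16068 genes the median was 0.01 and 52.4% lay above 0. At an adjusted p under 0.05 limma called 0 collagen genes and 0% of all genes, and at an unadjusted p under 0.05 it counted 0 collagen genes against 2.91% of all genes. With the slide row as a block that count was 1 collagen gene, Col26a1, against 439 of all 16068 genes. The groups did not overlap in 0 of 34 collagen genes and in 1.42% of all genes. Without Control 4, 21 collagen genes lay above 0 and 13 below, and without Mutant 2 these were 10 and 24. The slide held 2 rows with 2 tumours of each group, and the median difference was 0.51 in the row with Mutant 2 and -0.82 in the row with Control 4, so the median had opposite signs in the 2 rows.

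**Figure D1:**
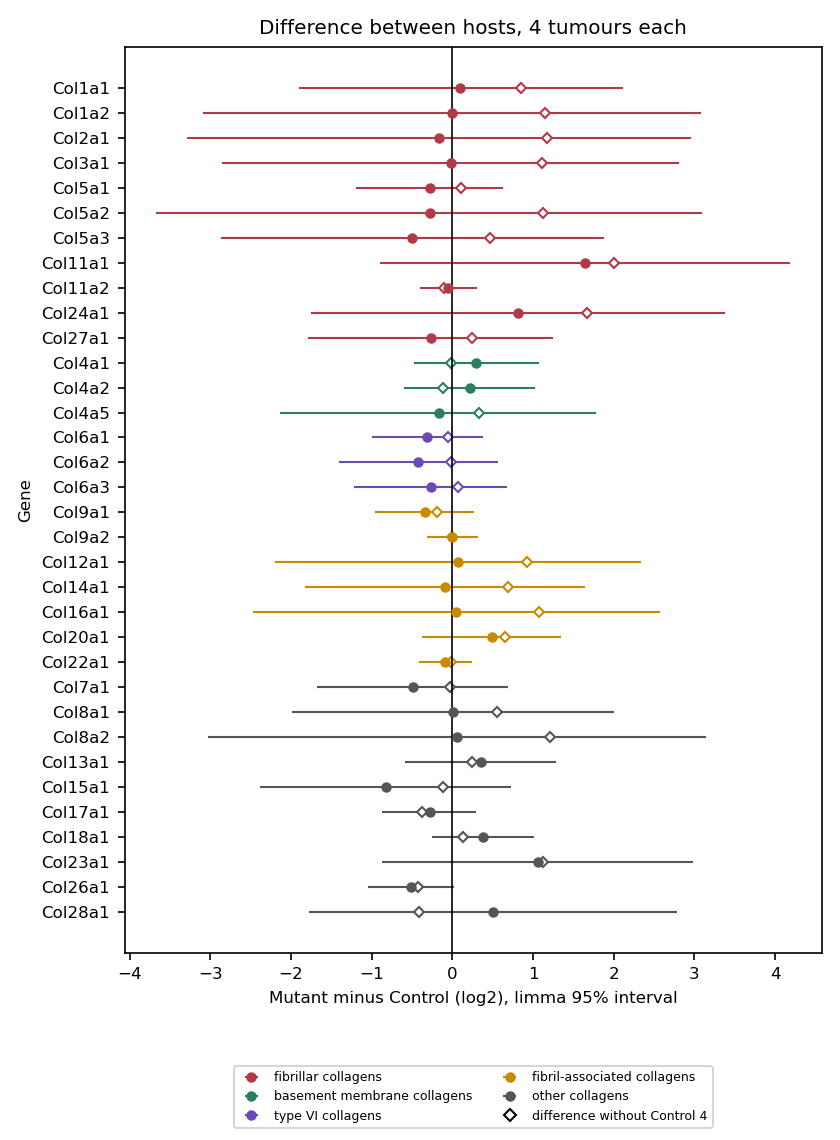
Difference between hosts for each tested collagen gene, with filled points for the limma estimate over 4 Mutant and 4 Control tumours, bars for its 95% interval and open diamonds for the estimate without Control 4 (x axis, log2). Every interval includes 0, the nearest to leaving it out being Col26a1 with -1.05 to 0.02, and most fibrillar diamonds lie to the right of their points.

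Collagen genes varied widely among tumours of the same host. The SD between tumours within groups exceeded 1 log2 unit for 18 of 34 collagen genes and for 9.04% of all genes, and its median was 1.06 against 0.27. Without Control 4 these were 13 of 34 against 6.53% and 0.64 against 0.22, and without Control 4 and Mutant 2 they were 7 of 34 against 5.76% and 0.62 against 0.23. By class over the 8 tumours the median SD was 1.77 for fibrillar, 0.94 for other, 0.65 for type VI, 0.59 for fibril-associated and 0.56 for basement membrane collagens. Without Control 4 the same medians were 1.17, 0.61, 0.42, 0.52 and 0.33. Control 4 had the highest level in 21 of 34 collagen genes, or 61.8%, against 22.4% of all genes. It had the lowest in 4, or 11.8%, against 35.2% of all genes. Control 4 and Mutant 2 were the 2 highest tumours in 14 of 34 collagen genes, or 41.2%, and in 9.31% of all genes. These shares are descriptions, and collagen genes that share a cell source are not independent of each other. Of the 18 genes with an SD above 1, Col4a5, Col11a1, Col23a1 and Col24a1 were not above background on every array. Their SD therefore includes values that lay in the background.

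**Figure D2:**
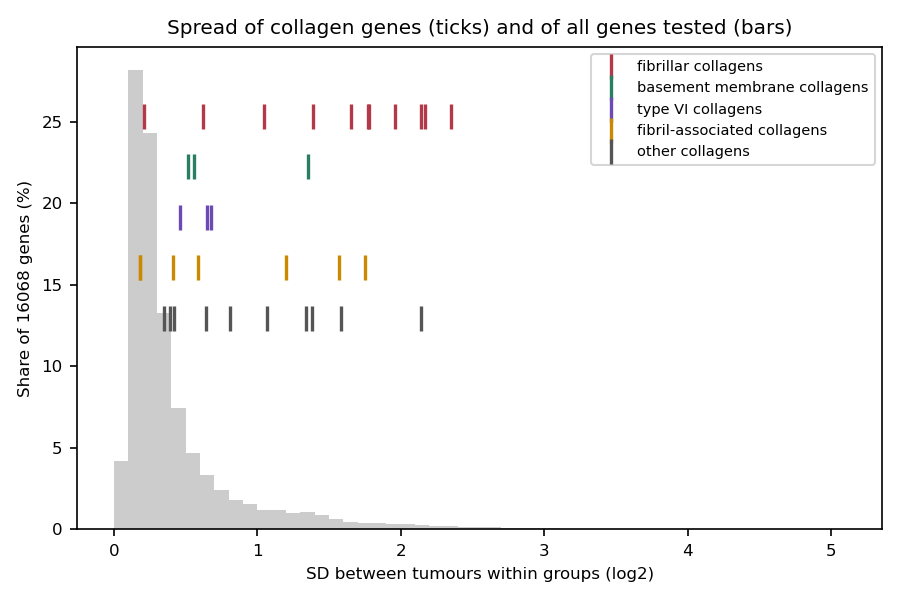
SD between tumours within groups (x axis, log2), with grey bars for the share of all 16068 genes in bins of 0.1 and coloured ticks for the 34 collagen genes by class. The fibrillar ticks reach 2.35, far to the right of the bulk of the genes, whose median is 0.27.

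**Figure D3:**
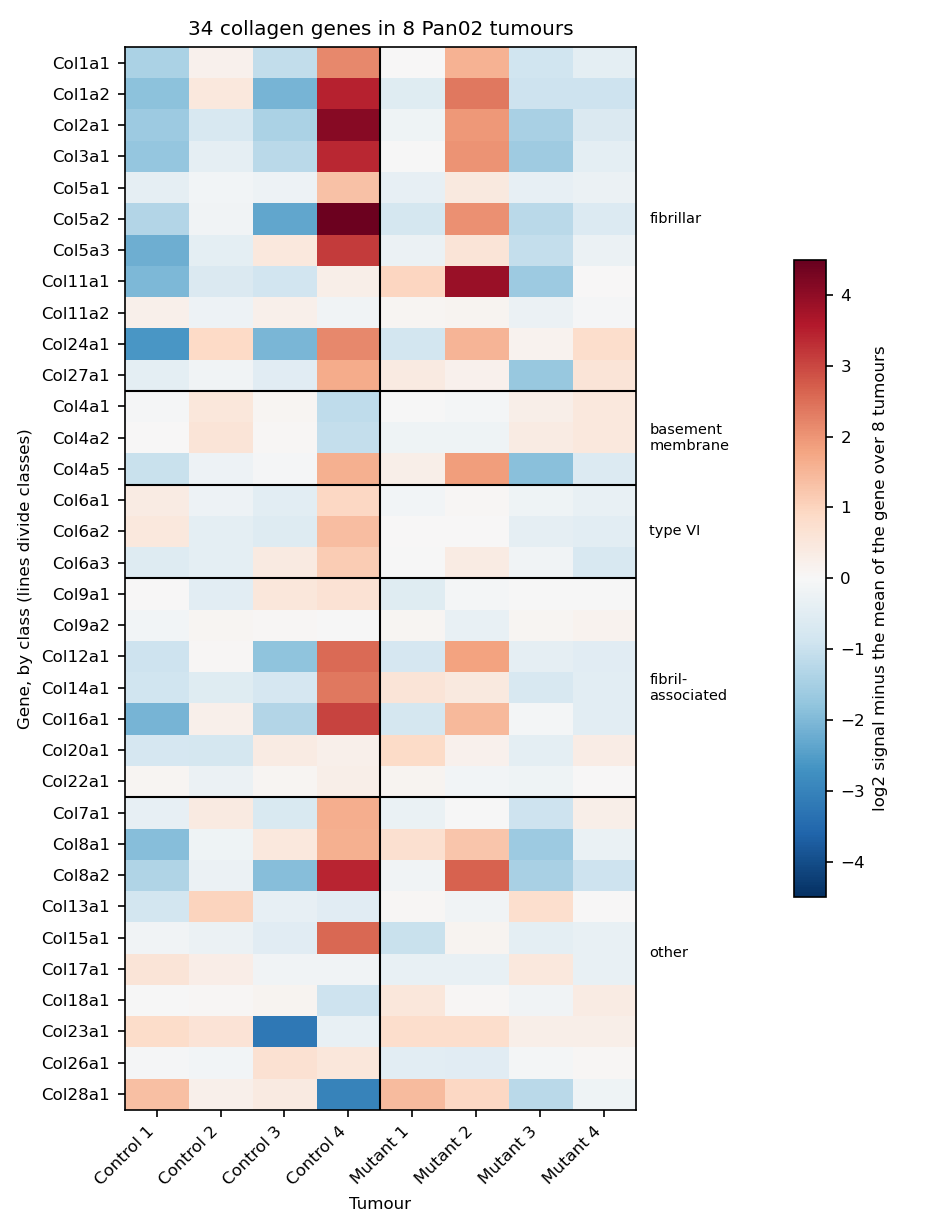
Level of each tested collagen gene in each tumour, as log2 signal minus the mean of the gene over the 8 tumours (colour, red above and blue below). Lines divide the 5 classes and the 2 groups of 4 tumours. Control 4 and Mutant 2 are red through most fibrillar chains, while Col4a1, Col4a2, Col18a1 and Col28a1 are blue in Control 4.

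Col1a1, Col1a2 and Col3a1 had nearly equal group means, and the fibrillar class had the largest median SD of the 5 classes. Col1a1, the main chain of type I collagen, was at 4.63, 6.24, 4.94 and 8.23 in the Control tumours 1 to 4 and at 6.07, 7.63, 5.15 and 5.61 in Mutant 1 to 4. The highest and the lowest tumour were both Control and lay 12.2-fold apart. The difference was 0.10 with a standard error of 0.86 (limma adjusted p = 1), and it was 0.85 without Control 4 and -0.40 without Mutant 2. A second Col1a1 probe followed the first and differed by 0.15. Col1a2, the partner chain, was at 3.97, 6.29, 3.72 and 9.26 in the Control tumours 1 to 4 and at 5.27, 8.19, 4.88 and 4.89 in Mutant 1 to 4. Its range was 46.7-fold, and the groups overlapped widely, with a difference of 0.00 (standard error 1.33) that was 1.15 without Control 4. Col3a1, whose type III fibrils mix with type I, was at 2.91, 4.24, 3.43 and 8.06 in the Control tumours 1 to 4 and at 4.62, 6.68, 3.06 and 4.20 in Mutant 1 to 4. Control 4 and Mutant 2 again stood above the other 6 tumours, and the difference was -0.02 (standard error 1.22), or 1.11 without Control 4.

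Chains of type V and type II were also highest in Control 4 and then Mutant 2. Col5a1, a type V chain that helps to start fibrils, was at 4.80, 5.06, 4.98 and 6.50 in the Control tumours 1 to 4 and at 4.84, 5.62, 4.83 and 4.92 in Mutant 1 to 4. Outside Control 4 and Mutant 2 the other 6 tumours lay within 4.80 to 5.06, so Col5a1 was steady in most tumours. Col5a2, its partner, spanned 6.75 log2 units from its lowest tumour, Control 3, to 2.74 in Control 4, the widest range of the tested chains. Col5a3, a further type V chain, was at -0.92, 0.84, 1.76 and 4.42 in the Control tumours 1 to 4 and at 1.00, 1.87, 0.21 and 1.01 in Mutant 1 to 4, with a difference of -0.50 (standard error 1.03) that was 0.47 without Control 4. Col2a1, the chain of cartilage collagen, was at 4.57 in Control 4 and 2.45 in Mutant 2 and between -1.14 and 0.30 in the other 6 tumours. The cartilage markers Matn1, Cnmd and Snorc were not well above background on any array, and Acan, which encodes aggrecan, was above it on 3 of 8. Comp and Sox9 were above it on every array, Hapln1 on 2 Control and 4 Mutant arrays and Matn3 on 1 Control array. Of these, Comp, Sox9 and Hapln1 were tested, and Control 4 was highest for 0 of the 3, against 22.4% of all genes.

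Col11a1, a type XI chain often seen in the stroma of carcinomas, had the smallest unadjusted p of the fibrillar class. It was at -5.51, -4.16, -4.37 and -3.25 in the Control tumours 1 to 4 and at -2.52, 0.40, -5.12 and -3.48 in Mutant 1 to 4, with Control 1 not above background. Mutant 2 alone lay far above the rest and Mutant 3 and Mutant 4 lay within the Control range, so the groups overlapped. The difference of 1.65 (standard error 1.10, 95% interval -0.90 to 4.19; limma adjusted p = 1) was 0.62 without Mutant 2 and 0.97 after normexp background correction. Its partner Col11a2 stayed within -4.46 to -3.97 in the 8 tumours, an SD of 0.21. Col24a1 was at -6.41, -2.89, -5.86 and -1.62 in the Control tumours 1 to 4 and at -4.63, -2.27, -3.62 and -3.01 in Mutant 1 to 4. Col24a1 was above background on 2 Control and 4 Mutant arrays, so its difference of 0.81 (standard error 1.11) includes 2 Control values that lay in the background. Leaving out 1 tumour gave 0.07 for Control 1, 0.26 for Control 3, 1.67 for Control 4 and 0.44 for Mutant 2, and normexp gave 0.11. Col27a1 differed by -0.27, or 0.25 without Control 4. For the class as a whole 3 of 11 members were above 0 with a median of -0.05, which became 1.11 when Control 4 was left out, 0.30 for Mutant 3, 0.02 for Mutant 4 and -0.47 for Mutant 2. Within slide rows the fibrillar median was 1.42 in the row with Mutant 2 and -1.21 in the row with Control 4.

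Fibril-associated collagens differed in spread, from 20-fold and more to less than 2-fold. Col12a1 and Col16a1, which bind to fibril surfaces, spanned 20.3-fold and 34.9-fold, with Control 4 at 4.40 and 5.24 and Mutant 2 next at 3.69 and 3.64. Their differences between hosts were 0.07 and 0.05, or 0.93 and 1.08 without Control 4. Col14a1, of fibrils in skin and tendon, was at -3.30, -2.94, -3.17 and -0.01 in the Control tumours 1 to 4 and at -1.81, -1.96, -3.13 and -2.87 in Mutant 1 to 4. For Col14a1 Control 4 was by far the highest tumour, and Mutant 1 and Mutant 2 lay between it and the rest. The difference of -0.09 (standard error 0.75) was 0.69 without Control 4. Col20a1 was at -4.48, -4.51, -3.34 and -3.48 in the Control tumours 1 to 4 and at -2.83, -3.52, -4.14 and -3.37 in Mutant 1 to 4, a difference of 0.49 (standard error 0.37), or 0.22 after normexp. Mutant 2, 3 and 4 lay within the Control range, and Mutant 1 alone above it.

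The type IX chain Col9a1 was dim, above background on 3 Control and 2 Mutant arrays. It was at -5.64, -6.14, -5.15 and -5.02 in the Control tumours 1 to 4 and at -6.22, -5.76, -5.68 and -5.68 in Mutant 1 to 4. Its difference of -0.34 (standard error 0.26) therefore includes values that lay in the background, and was -0.56 without Control 2 and -0.19 without Control 4. Col9a2 stayed within -3.49 to -2.99, an SD of 0.18. Of the 7 tested fibril-associated chains 4 lay above 0, with a median of 0.00 that was 0.65 without Control 4 and -0.25 without Mutant 2.

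Col22a1, a collagen of the junction between muscle and tendon, gave different readings by probe. The brighter probe was at -5.49, -5.83, -5.49 and -5.31 in the Control tumours 1 to 4 and at -5.44, -5.71, -5.75 and -5.56 in Mutant 1 to 4, a difference of -0.09 (standard error 0.14), or -0.01 without Control 4. The second probe, above background on 4 of 8 arrays, was at -5.76, -5.72, -6.55 and -6.98 in the Control tumours 1 to 4 and at -4.71, -4.08, -7.13 and -4.96 in Mutant 1 to 4, a difference of 1.03. Mutant 1, 2 and 4, the highest 3 on the second probe, also had the highest levels of the skeletal muscle list, 2.03, 2.93 and 1.51. In that list 14 of 14 markers were tested, and its level ranged from -3.41 to 0.19 in Control and from -0.95 to 2.93 in Mutant tumours. All 14 lay above 0 with a median difference of 2.87, or 2.02 without Control 4 and 1.56 without Control 4 and Mutant 2. Control 4 was the lowest tumour in 10 of 14, against 35.2% of all genes. At an unadjusted p under 0.05 there were 8 of 14, against 2.91% of all genes (limma called 0). The part of muscle tissue in the Col22a1 reading was not tested.

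Type VI collagens were steadier than fibrils and lay below 0 in 3 of 3 tested chains, with a median of -0.31. Col6a1 was at 6.84, 6.23, 6.01 and 7.41 in the Control tumours 1 to 4 and at 6.34, 6.51, 6.28 and 6.13 in Mutant 1 to 4, a difference of -0.31 (standard error 0.30). Col6a2 was at 3.60, 2.67, 2.53 and 4.51 in the Control tumours 1 to 4 and at 3.13, 3.14, 2.72 and 2.64 in Mutant 1 to 4, a difference of -0.42 (standard error 0.43). Control 4 and then Control 1 were highest for both chains, and the Mutant tumours lay within the range of the other Control tumours. Col6a3, the long chain of the type VI molecule, was at 4.20, 4.36, 5.18 and 5.92 in the Control tumours 1 to 4 and at 4.76, 5.15, 4.64 and 4.05 in Mutant 1 to 4. Col6a3 placed Control 3 rather than Control 1 behind Control 4, and its difference was -0.27 (standard error 0.41). None of the 3 passed (limma adjusted p = 1 for each), and without Control 4 their differences were -0.05, -0.02 and 0.07. A second, dimmer Col6a3 probe differed by -0.66.

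The basement membrane chains Col4a1 and Col4a2, which are made together as the common type IV molecule, were lowest in the tumour where fibrillar chains were highest. Col4a1 was at 3.88, 4.45, 4.03 and 2.82 in the Control tumours 1 to 4 and at 3.92, 3.85, 4.20 and 4.42 in Mutant 1 to 4. Col4a2 was at 3.07, 3.62, 3.11 and 1.96 in the Control tumours 1 to 4 and at 2.86, 2.85, 3.41 and 3.51 in Mutant 1 to 4. Control 4 was the lowest of the 8 tumours for both chains, and Control 2 the highest. The differences were 0.30 (standard error 0.34) for Col4a1 and 0.22 (standard error 0.35) for Col4a2, and without Control 4 they were -0.02 and -0.11. The endothelial markers, whose cells lay down type IV collagen, had 10 of 10 genes tested and a level from -0.46 to 0.57 in Control and from -0.20 to 0.47 in Mutant tumours. Control 4 was at -0.17 on that list, inside the Control range, and Control 2 was its highest tumour, as for both chains.

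Col4a5, a chain of more specialised basement membranes, was at -5.77, -5.00, -4.82 and -3.19 in the Control tumours 1 to 4 and at -4.53, -2.90, -6.65 and -5.38 in Mutant 1 to 4. It was above background on 3 arrays of each group and, unlike Col4a1 and Col4a2, was highest in Mutant 2 and Control 4. Its difference was -0.17 (standard error 0.84), and -0.82 on a second probe whose levels correlated with the first at r = 0.59. Of the 3 tested type IV chains 2 lay above 0, with a median of 0.22. Within slide rows the median was -0.28 in the row with Mutant 2 and 0.88 in the row with Control 4, opposite in sign to the fibrillar class. Col4a1 and Col4a2 had the signs of this median, but Col4a5 differed by 1.67 and -2.02, the signs of the fibrillar class.

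The multiplexins Col15a1 and Col18a1, both of basement membrane zones, took opposite places in Control 4. Col18a1, the source of endostatin, was at 6.10, 6.16, 6.22 and 5.16 in the Control tumours 1 to 4 and at 6.63, 6.14, 5.95 and 6.47 in Mutant 1 to 4. Control 4 was the lowest tumour, and the difference of 0.38 (standard error 0.27; limma adjusted p = 1) was 0.13 without it. Col15a1 was at -4.82, -4.91, -5.18 and -2.09 in the Control tumours 1 to 4 and at -5.66, -4.53, -5.10 and -5.00 in Mutant 1 to 4. Control 4 was the highest tumour here, and the difference of -0.82 (standard error 0.67) was -0.11 without it and -0.43 after normexp. A second Col15a1 probe gave -0.45.

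Among the remaining types the network chains Col8a1 and Col8a2, known from vessel walls and the cornea, followed the fibrils. Col8a1 spanned 11.7-fold and Col8a2 40.8-fold, both with Control 4 highest and Mutant 2 second, and their differences between hosts were 0.01 and 0.06, or 0.55 and 1.21 without Control 4. Col7a1, the anchoring fibril chain that ties epithelium to stroma, was highest in Control 4 at 4.83 and lay between 2.26 and 3.61 in the other tumours, with a difference of -0.49 that was -0.03 without Control 4.

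The membrane chains did not follow Control 4. Col23a1 was at -3.19, -3.41, -7.25 and -4.38 in the Control tumours 1 to 4 and at -3.25, -3.23, -3.77 and -3.75 in Mutant 1 to 4, with Control 3 not above background. Its difference of 1.06 (standard error 0.83) was 0.16 without Control 3 and 0.19 after normexp, and the other 7 values lay within -4.38 to -3.19. Col13a1 differed by 0.35, or 0.74 without Control 2. Col17a1, a hemidesmosome chain of basal keratinocytes, differed by -0.28 on its brighter probe and by 0.66 on the other. On both Col17a1 probes Mutant 3 was the highest Mutant tumour, at -4.11 and -4.27, but on the brighter probe Control 1 was higher, at -3.98. Mutant 3 also had the highest keratinocyte level, 2.08, with Lor at 0.17 there and at most -4.73 elsewhere. Krt5 was also highest in Mutant 3, at -1.40, but Krt14 was higher in Mutant 2 (-0.64) than in Mutant 3 (-1.21). Krt10 and Trp63, at 0.72 and 2.99 in Mutant 3, varied little among the tumours. Of the 8 keratinocyte markers 5 were tested, Krt1 and Dsg3 were not above background on any array, and the list ranged from -0.55 to -0.30 in Control and from -0.55 to 2.08 in Mutant tumours. The part of skin tissue in the Col17a1 reading was not tested.

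Col26a1 had the smallest unadjusted p of the collagen genes (limma adjusted p = 1). It was at -5.18, -5.27, -4.44 and -4.64 in the Control tumours 1 to 4 and at -5.60, -5.66, -5.22 and -5.09 in Mutant 1 to 4. Mutant 3 and 4 overlapped Control 1 and 2, and the difference was -0.51 with a standard error of 0.23 and a 95% interval of -1.05 to 0.02, or -0.21 after normexp. A second probe, above background on 4 of 8 arrays, did not follow the first (r = -0.15) and differed by 0.91, so the 2 probes disagreed in sign. Col28a1, known from peripheral nerve, was at 0.64, -0.49, -0.31 and -3.72 in the Control tumours 1 to 4 and at 0.72, 0.22, -1.92 and -0.90 in Mutant 1 to 4. Control 4 was its lowest tumour, although 7 of 8 Schwann cell markers were tested and their level was highest in Control 4, at 1.93. The Col28a1 difference of 0.51 (standard error 0.98) was -0.41 without Control 4. A second Col28a1 probe correlated with the first at r = 0.97 and differed by -0.01.

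The 10 collagen genes that were not tested were mostly at the floor of the array, with a few exceptions in single tumours. Col4a3, Col6a6 and Col19a1 were not well above background on any array. Col6a5, a type VI chain of restricted tissues, was at 1.20 in Control 4 and at -4.59 or less in the other 7 tumours, and was above background on 2 Control arrays and 1 Mutant array. Col6a4 and Col4a4 were above background on 1 array each, in Control tumours. Col4a6, the partner of Col4a5, was above background in 1 Mutant tumour, Mutant 2, at -3.16. Col9a3, Col10a1 and Col25a1 were each above background on 1 Mutant array. With no filter on dim probes all 44 genes could be fitted, 21 above 0 and 23 below, and limma called 0 of them. It counted 0 of them at an unadjusted p under 0.05, against 623 of all 22911 genes.

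Most pairs of chains that assemble together had correlated levels across the 8 tumours. Of 12 pairs planned, 9 had both chains tested, and 7 of 9 Pearson correlations passed after Benjamini-Hochberg adjustment over the pairs, against 5 of 9 by Spearman rank (two-sided exact permutation over 40320 arrangements). The share among other pairs of genes was not computed, so these counts describe the 9 pairs alone. Col6a1 and Col6a2 gave r = 0.99 (exact permutation p = 2.48e-05, the smallest the arrangements allow; adjusted p = 0.000223) and rho = 1.00 (p = 4.96e-05; adjusted p = 0.000446). Col1a1 and Col1a2 gave r = 0.98 (exact permutation p = 7.44e-05, adjusted 0.000335) and rho = 0.98 (p = 0.000397, adjusted 0.00119). Both pairs kept the relation without the 2 tumours farthest from the median of the first chain, at r = 0.89 and r = 0.90. Col4a1 and Col4a2 gave r = 0.98 (exact permutation p = 0.000223, adjusted 0.000614) and rho = 0.98 (p = 0.000397, adjusted 0.00119), with r = 0.93 without the farthest tumours. Col1a1 and Col3a1 gave r = 0.98 (exact permutation p = 0.000273, adjusted 0.000614) and rho = 0.95 (p = 0.00114, adjusted 0.00257), with r = 0.91 without them. Col4a1 and Col4a2, like Col6a1 and Col6a2, are neighbours with 0 protein-coding genes between them in RefSeq's annotation, while Col1a1 lies on another chromosome than Col1a2 or Col3a1.

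Other pairs were looser. Col1a1 and Col5a1 gave r = 0.89 (exact permutation p = 0.00275, adjusted 0.00496) and rho = 0.83 (p = 0.0154, adjusted 0.0277), and Col5a1 and Col5a2 gave r = 0.95 (exact permutation p = 0.00687, adjusted 0.0103) and rho = 0.76 (p = 0.0368, adjusted 0.0551). Without Control 4 and Mutant 2, the farthest tumours for both pairs, r was 0.48 and 0.18, so both relations were weaker among the other 6 tumours. Leaving out 1 tumour at a time, r stayed within 0.86 to 0.92 and 0.85 to 0.99. Col8a1 and Col8a2 gave r = 0.74 (exact permutation p = 0.0385, adjusted 0.0495) and rho = 0.74 (p = 0.0458, adjusted 0.0589). For Col8a1 and Col8a2 r was 0.81 without Control 1 and Mutant 3. Col6a3 did not track Col6a1 beyond the spread, with r = 0.54 (exact permutation p = 0.168, adjusted 0.189) and rho = 0.26 (p = 0.536, adjusted 0.603), or r = 0.24 without Control 1 and Control 4. Col11a1 and Col11a2 gave r = 0.16 (exact permutation p = 0.747, adjusted 0.747) and rho = 0.00 (p = 1, adjusted 1), or r = 0.34 without Control 1 and Mutant 2. Each slide row held 4 tumours, too few for a correlation within rows.

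**Figure D4:**
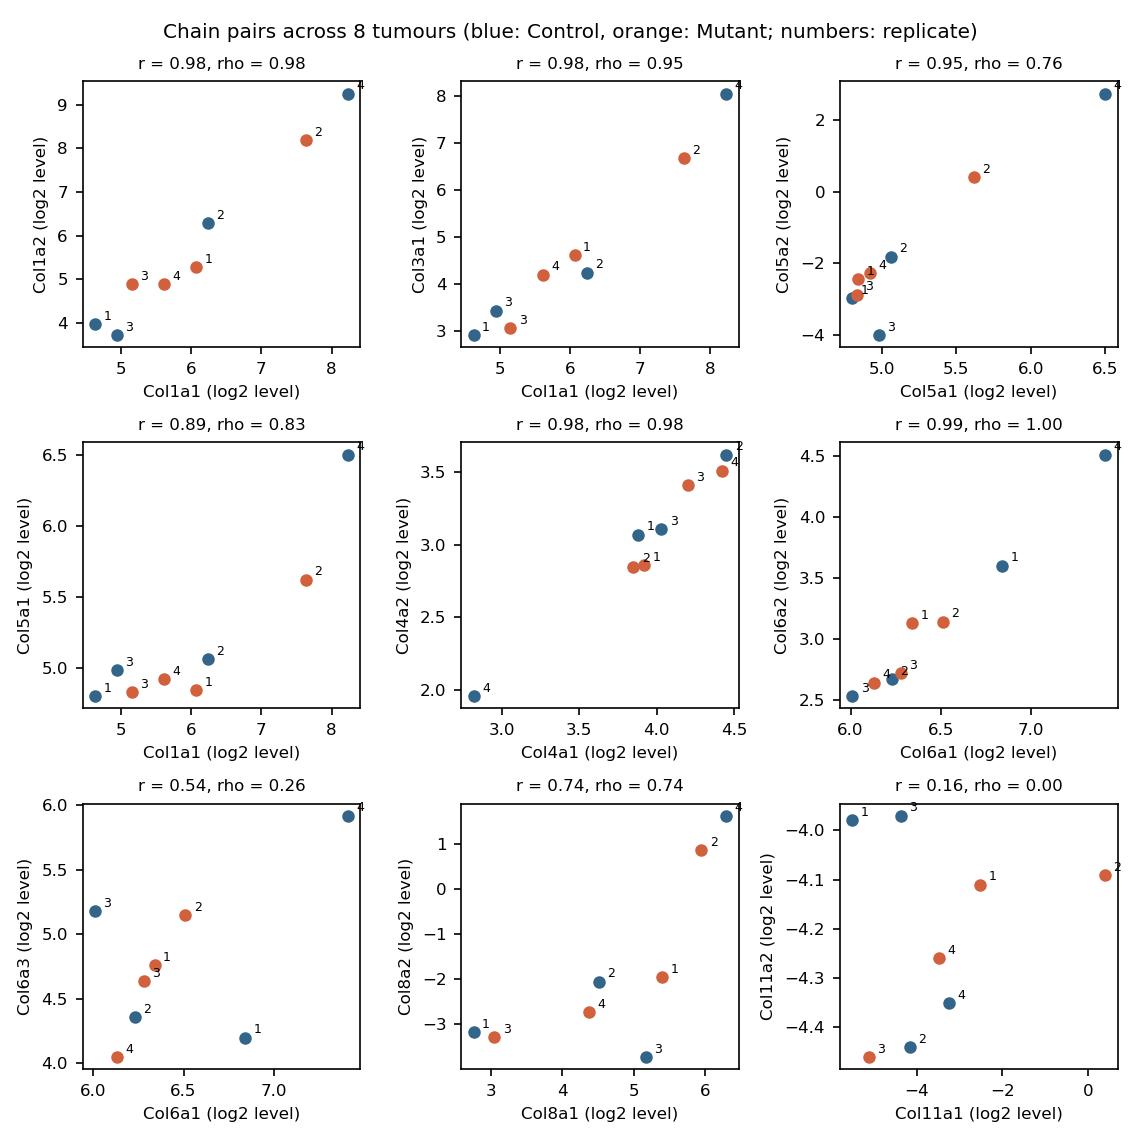
Log2 levels of 9 pairs of chains (x and y axes) in 8 tumours, blue for Control and orange for Mutant, numbered by replicate. Points of the type I, type IV and Col6a1 and Col6a2 pairs lie close to a line (r from 0.98 to 0.99), whereas those of Col6a1 and Col6a3 (r = 0.54) and of Col11a1 and Col11a2 (r = 0.16) scatter.

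Several marker lists, those of fibroblasts, Schwann cells and adipocytes, had the same 2 highest tumours as the fibrillar chains. The level of the 15 fibroblast markers, all tested, read -0.73, -0.55, -1.01 and 2.34 in the Control tumours 1 to 4, with 0.41, 1.02, -1.13 and -0.35 in Mutant 1 to 4. The fibrillar level, the mean of its 11 chains each centred on its own mean, was 2.36 in Control 4, 1.52 in Mutant 2 and -0.12 or less in the other 6 tumours. Among single fibroblast markers Control 4 was highest in 12 of 15, against 22.4% of all genes. Control 4 and Mutant 2 were the 2 highest in 10 of 15, against 9.31% of all genes, while Pdgfrb was lowest in Control 4. The Schwann cell level was 1.93 in Control 4 and 0.57 in Mutant 2, and the adipocyte level 0.73 and 0.67. In RNA of whole tumours a change in the number of cells of a type and a change in RNA per cell cannot be told apart. Control 4 was also the highest tumour for the 6 tested of 8 epithelial and cancer cell markers, at 1.21 with the other Control tumours from -0.39 to 0.24 and the Mutant tumours from -0.60 to -0.01. The macrophage list, 10 of 10 tested, ranged from -0.28 to 0.51 in Control and from -0.62 to 0.45 in Mutant tumours, the smooth muscle and pericyte list, 9 of 9 tested, from -0.72 to 0.36 and from 0.04 to 0.58, and the adipocyte list, 5 of 8 tested, from -0.87 to 0.73 and from -0.38 to 0.67. The part of these cells in the collagen levels was not tested.

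**Figure D5:**
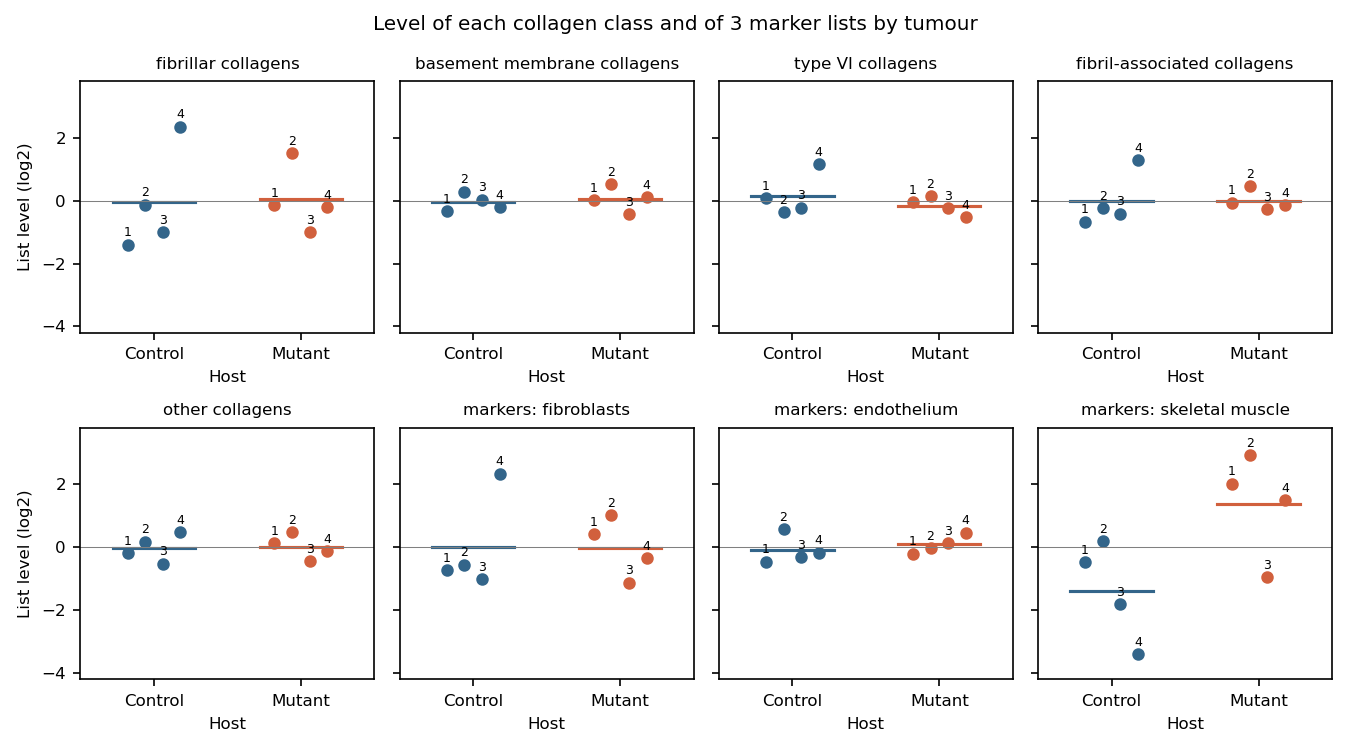
Level of the 5 collagen classes and of 3 marker lists in each tumour (y axis, mean log2 signal of the tested genes, each centred on its mean over 8 tumours), with points numbered by replicate and lines at the group means. Control 4 and Mutant 2 lead the fibrillar class (2.36 and 1.52) and the fibroblast markers (2.34 and 1.02), and in every collagen class the 2 groups overlap.

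Genes that fold and secrete collagen varied less than the chains, about as much as all genes, and lay mostly below 0. Of 20 tested members of 22 listed, 5 lay above 0 and 15 below, and limma called 0. The median was -0.09, or -0.04 without Control 4. By slide row it was -0.02 in the row with Mutant 2 and -0.33 in the row with Control 4. The median SD within groups was 0.23, against 0.27 for all genes. At an unadjusted p under 0.05 there were 5 of 20, against 2.91% of all genes, and the groups did not overlap in 4 of 20, against 1.42%. P4ha1, a catalytic subunit of collagen prolyl 4-hydroxylase, was at 0.79, 0.33, 0.88 and 0.76 in the Control tumours 1 to 4 and at 0.15, -0.13, 0.15 and 0.13 in Mutant 1 to 4. The Control values were higher without overlap, although Control 4 did not stand out, and the difference was -0.61 (standard error 0.15; limma adjusted p = 1). Plod2, a lysyl hydroxylase of collagen, was at 0.26, 0.07, 0.19 and 1.07 in the Control tumours 1 to 4 and at -0.43, -0.26, -0.12 and -0.11 in Mutant 1 to 4, a difference of -0.63 (standard error 0.22), or -0.40 without Control 4. P3h2, a prolyl 3-hydroxylase, was at -3.38, -3.40, -3.71 and -3.19 in the Control tumours 1 to 4 and at -3.93, -3.78, -3.84 and -4.80 in Mutant 1 to 4, a difference of -0.67 (standard error 0.24), or -0.33 after normexp background correction. Tmem38b, a channel of the endoplasmic reticulum needed for collagen folding, is named because it was the remaining gene without overlap, and differed by 0.39, or 0.15 after normexp. P4ha2, the remaining gene of the 5 at an unadjusted p under 0.05, overlapped between groups and differed by -0.79, or -0.51 without Control 4. None of these genes passed (limma adjusted p = 1). Beside these genes, 5 of 6 epithelial and cancer cell markers lay below 0, and 14 of 14 skeletal muscle markers lay above 0. The epithelial median was -0.50, or -0.29 without Control 4, the highest tumour for 6 of 6 and for 22.4% of all genes. At an unadjusted p under 0.05 there were 2 of 6 epithelial and 8 of 14 muscle markers, against 2.91% of all genes. In both lists limma called 0. The part of these cells in the enzyme values was not tested.

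The enzymes that act on collagen outside the cell and its receptors had lists of the same kind, and limma called 0 genes in each. Of 12 tested genes of propeptide processing and crosslinking 4 lay above 0 and 8 below, with a median of -0.21 that was 0.09 without Control 4. At an unadjusted p under 0.05 there was 1 of 12, against 2.91% of all genes. In this list the procollagen protease Adamts14 differed by -0.30 (standard error 0.13), the lysyl oxidase Loxl4 by -0.63 (standard error 0.34) and the procollagen protease Tll1 by 1.07 (standard error 0.80). Tll1 was 1.75 without Control 4 and 0.35 after normexp. Of 10 tested collagen receptors 5 lay above 0 and 5 below, with a median of -0.01, and 0 were at an unadjusted p under 0.05. The collagen receptor kinase Ddr2 differed by -0.34 (standard error 0.19), and the integrin chains Itga1 and Itga2 by -1.11 (standard error 0.73) and 0.53 (standard error 0.47). Itga1 was -0.33 without Mutant 2 and -0.67 after normexp, and Itga2 was 0.19 without Control 4, 0.84 without Mutant 2 and 0.16 after normexp. Itga1 was at -4.97 in Mutant 2, a tumour with high fibrillar levels, and between -2.17 and -0.80 in the other 7. Of 9 tested genes of collagen breakdown 3 lay above 0 and 6 below, with a median of -0.10 that was 0.79 without Control 4. Among them 1 of 9 was at an unadjusted p under 0.05, against 2.91% of all genes. That gene was the collagenase Mmp8, which differed by 1.02 (standard error 0.35), or 0.66 after normexp, while the gelatinase Mmp9 differed by 0.51, or 0.12 without Control 4, and the proline peptidase Pepd by -0.18 (limma adjusted p = 1 for each).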

How the data were processed

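RNA of 8 tumours was measured on 1-colour Agilent arrays on 1 slide. Feature Extraction 10.7.3.1 made the intensity values, per the file headers (the submitters' processing notes name version 9.1), and the processed signal deposited by the authors is linear, background-subtracted and detrended, with no scaling between arrays. The deposited flag columns hold no measurement. The authors' deposited value table, also linear intensity, equals the mean processed signal within 0.01% for 99.463% to 99.505% of probes, with column medians of 52.8 to 61.8 and no centring. Probes took the symbol of their RefSeq accession from a gene table (GRCm38.p6): 32994 of 56605 had 1 gene, 0 several and 23611 none. The array design names another build, so no coordinates are given.

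After removal of 66 to 117 outlier spots an array, the spots of each probe were averaged and log2 signals centred on each array's 75th percentile (575.9 to 740.7 before log2). A filter for signal well above background (4 of 8 arrays or more) kept 36824 probes, and the brightest of each gene gave 16068 genes, fitted by limma 3.58.1 (R 4.3.3) with group as the only term and Benjamini-Hochberg adjustment. Class levels and medians carry no test. Full values are given for Col1a1, Col1a2, Col3a1, the tested type IV and VI chains and up to 4 chains of smallest p in each class, and for up to 3 genes of each enzyme list. Col2a1, Col5a2, Col7a1, Col8a1, Col8a2, Col12a1, Col16a1, Col17a1, Col28a1, P4ha2 and Tmem38b were singled out after their values were seen. Members and lists were chosen with earlier results of these data known. Tumours were treated as independent, as the design text gives 4 mice per group. Alternatives changed background, scaling, filter, probe rule, value source, blocks (replicate number, slide row) and left out tumours. The plan named background and spot signals, for which the median columns were used. The fit was first checked on simulated arrays. Python 3.11.15, pandas 2.3.3 and scipy 1.17.1 were used.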

Additional observations from a re-analysis of the deposited data

Results flagged for a closer look

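In groups of 4 tumours, 80 sets of values (34 collagen genes, 5 classes and all collagens, in 2 groups) were checked for a tumour far from the other 3, by Dixon's ratio of gap to range at its 95% critical value. There were 13 such values, where chance alone flags about 5% of groups, and the sets share tumours and are not independent. Control 4 accounted for 6 of them. It was high for Col2a1 (4.57), Col5a1 (6.50), Col14a1 (-0.01), Col15a1 (-2.09) and Col27a1 (-0.37), and low for Col18a1 (5.16). Mutant 2 accounted for 4, high for Col1a2 (8.19), Col5a1 (5.62) and Col12a1 (3.69) and low for Col9a2 (-3.49). Mutant 3 was high for Col17a1 (-4.11) and low for Col27a1 (-3.75), and Mutant 1 was low for Col9a1 (-6.22), where the other Mutant tumours lay within -5.76 to -5.68.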

How the results depend on the processing

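Under 19 alternatives limma called 0 collagen genes and 0 of all genes, and the median difference of the collagens ranged from -0.39 to 0.24. Of 34 differences 11 kept their sign in every one of the 19 settings where they were fitted, and 23 in the 10 that left no tumour out. The filter for signal on all 8 arrays fitted only 28 of the 34. Without 1 tumour the signs of these differences turned, with ranges of -0.40 to 0.85 for Col1a1, -0.80 to 1.15 for Col1a2, -0.84 to 1.17 for Col2a1, -0.70 to 1.11 for Col3a1, -0.02 to 0.52 for Col4a1, -0.11 to 0.44 for Col4a2, -0.83 to 0.42 for Col4a5, -0.47 to 0.11 for Col5a1, -1.11 to 1.13 for Col5a2, -1.32 to 0.47 for Col5a3, -0.50 to 0.07 for Col6a3, -0.63 to 0.56 for Col8a1, -0.82 to 1.21 for Col8a2, -0.05 to 0.11 for Col9a2, -0.13 to 0.03 for Col11a2, -0.52 to 0.93 for Col12a1, -0.40 to 0.69 for Col14a1, -0.63 to 1.08 for Col16a1, -0.50 to 0.26 for Col27a1 and -0.41 to 1.04 for Col28a1. Correlations then ranged from -0.21 to 0.77 for Col6a1 and Col6a3 and from -0.08 to 0.46 for Col11a1 and Col11a2, and 5 to 7 pairs passed, 5 without Control 4 and 5 without Mutant 2.

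Without Control 4 and Mutant 2 together, left out after the data were seen, 3 pairs passed, r was -0.45 for Col6a1 and Col6a3, and the signs turned for Col1a2 (0.35), Col2a1 (0.49), Col3a1 (0.43), Col4a2 (-0.01), Col5a2 (0.40), Col5a3 (0.18), Col14a1 (0.53), Col22a1 (0.02), Col27a1 (0.14) and Col28a1 (-0.64). Normexp turned Col4a5 (0.01), Col8a2 (-0.06), Col9a2 (-0.04) and Col22a1 (0.16). Quantile normalization turned Col1a2 (0.08), Col3a1 (0.03), Col9a2 (-0.02) and the correlation of Col11a1 and Col11a2 (-0.10), and median centring turned Col8a1 (-0.02), Col9a2 (-0.02) and that correlation (-0.08). The mean of a gene's probes turned Col11a2 (0.02), Col12a1 (-0.01), Col17a1 (0.19), Col22a1 (0.47) and Col26a1 (0.20). Of 12 second probes that passed the filter, 6 had the sign of the brighter probe and 6 the other sign. The correlation with the brighter probe was above 0.9 for 6 of the 12. The cause was not tested. Probes that were not well above background on all 8 arrays limit Col4a5, Col9a1, Col11a1, Col22a1, Col23a1 and Col24a1.

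Tumours with the same number did not deviate together (r from -0.31 to 0.08) and none correlated best with its own number. With the replicate block limma called 0 genes, counted 371 at an unadjusted p under 0.05 against 467 without it, and counted Col26a1 among the collagens. With the slide row as a block Col26a1 was again the collagen at an unadjusted p under 0.05, against 439 of all 16068 genes. It was also counted without Control 1, against 305 of all genes, and without Mutant 4, against 257. Without Control 2 the collagens counted were Col9a1, Col13a1 and Col26a1, against 972 of all genes. Without Mutant 3 Col11a1 was counted, against 659 of all genes.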
